A study of Homo sapiens with 9 samples.

Results

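Long intergenic non-coding RNAs (lincRNAs) are transcripts that do not encode a protein and arise from loci between the protein-coding genes. Some are structural RNAs of the nucleus, such as MALAT1 and NEAT1, some act in the cytoplasm, such as NORAD, and many serve as host transcripts for small nucleolar RNAs (snoRNAs) or microRNAs (miRNAs). Most are transcribed at low levels, so only a small share of the annotated genes can be measured well in a bulk RNA-seq library. The well expressed lincRNA genes of OVCAR4 cells, an established high-grade serous ovarian carcinoma line, are described here under knockdown of MPZL3, which encodes an immunoglobulin-like membrane protein. They are the genes with the biotype lincRNA and at least 50 raw read counts in every one of the 9 libraries. The rule kept 98 of 7629 lincRNA genes in a table of 58735 genes, and 3526 of the lincRNA genes had at least 1 count in any library. Because the rule used the counts of all libraries, the level of these genes is not a finding, and a gene that fell below 50 counts in any library could not be among them.

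All 9 OVCAR4 libraries came from cells transduced with a pLKO.1 lentivirus and selected with puromycin for 3 days. The scr control group carried a scrambled shRNA, and the shMPZL3 #1 and shMPZL3 #2 groups each carried a different shRNA against MPZL3, with 3 libraries in each of the groups. The groups therefore share the vector and the selection, the knockdown is partial, and the study describes the libraries of a group as biological replicates. Total counts per library ranged from 15040102 to 27835841. MPZL3 had 403, 648 and 427 raw counts in the scr libraries, 130, 144 and 130 with shMPZL3 #1 and 281, 375 and 361 with shMPZL3 #2. Relative to scr it was lower with both shRNAs, with a log2 fold change of -2.17 ± 0.16 (SE, n = 3 against 3, edgeR adjusted p = 1.28e-07) for shMPZL3 #1 and -0.89 ± 0.15 (edgeR adjusted p = 0.00044) for shMPZL3 #2. The 2 shRNAs therefore left different amounts of MPZL3 mRNA (edgeR adjusted p = 3.46e-05). All 8 epithelial markers examined were detected, with 3381 to 7202 counts for PAX8 and 28710 to 75675 for KRT7, whereas the immune markers PTPRC, CD3E and LYZ reached at most 26 counts. Of the 8, WFDC2 was called higher grouped (log2 fold change 1.27, edgeR adjusted p = 6.2e-05) and 0 were lower. With shMPZL3 #1, 4 were higher and 1, MUC16, was lower (-0.61, edgeR adjusted p = 0.0072). With shMPZL3 #2, 1 was higher and 0 lower. Over all genes tested 9.38% were higher and 6.53% lower grouped, 16.9% and 15.4% with #1, and 9.53% and 5.98% with #2. PECAM1 and VWF, markers of endothelial cells, had 3 to 18 and 67 to 151 counts. Neither was called in the grouped comparison (edgeR adjusted p = 0.565 and 0.956). COL1A1, a fibroblast marker, had 173 to 924 counts and rose in the knockdown libraries (grouped log2 fold change 1.05, edgeR adjusted p = 0.0182). Its part in the results below was not tested.

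A few abundant transcripts held most of the signal. MALAT1, a nuclear speckle RNA, took 24.5% of the 547504 counts of the 98 genes over all libraries, MALAT1 and AL161431.1 together took 45.3%, and the 10 genes with the most counts took 69.4%. The 98 genes made up 77.1% of all lincRNA counts in the scr libraries, 71.5% with shMPZL3 #1 and 71.8% with shMPZL3 #2. Their share of the whole library was 0.320% ± 0.00869 (SD, n = 3) in scr, 0.306% ± 0.0841 with shMPZL3 #1 and 0.273% ± 0.0389 with shMPZL3 #2. MALAT1 alone ranged from 0.0225% to 0.154% of a library. Without it the share of the other 97 genes was 0.207% ± 0.0012 in scr, 0.236% ± 0.0135 with shMPZL3 #1 and 0.224% ± 0.0086 with shMPZL3 #2, so that the order of the groups turned on a single gene.

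Expressed per gene length, as TPM (counts over exonic length, scaled to a fixed sum in each library), the mean level in scr ranged from 0.905 for CARMN to 421 for MALAT1. The median was 9.58 TPM, against 23.8 TPM for protein-coding genes that met the same count rule. The 8 highest were MALAT1 at 421 ± 37.4 TPM (SD, n = 3), AL161431.1 at 320 ± 12.6, NORAD at 154 ± 4.77, CERNA2 at 82.7 ± 4.48, SNHG8 at 67.0, LINC01151 at 49.8 ± 10.2, SNHG4 at 41.9 ± 9.91 and AC026401.3 at 36.5. The spreads of LINC01151 and SNHG4 overlapped in this order. The exonic length ranged from 549 to 28487 bases with a median of 3430, the median number of exons was 3, and 26 genes had a single exon. The spread between libraries of a group was wider than for protein-coding genes of the same count rule, with a median SD of 0.22 against 0.15 on the log2 CPM scale. MALAT1 had the largest spread of the 98, with an SD of 0.97.

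**Figure D1:**
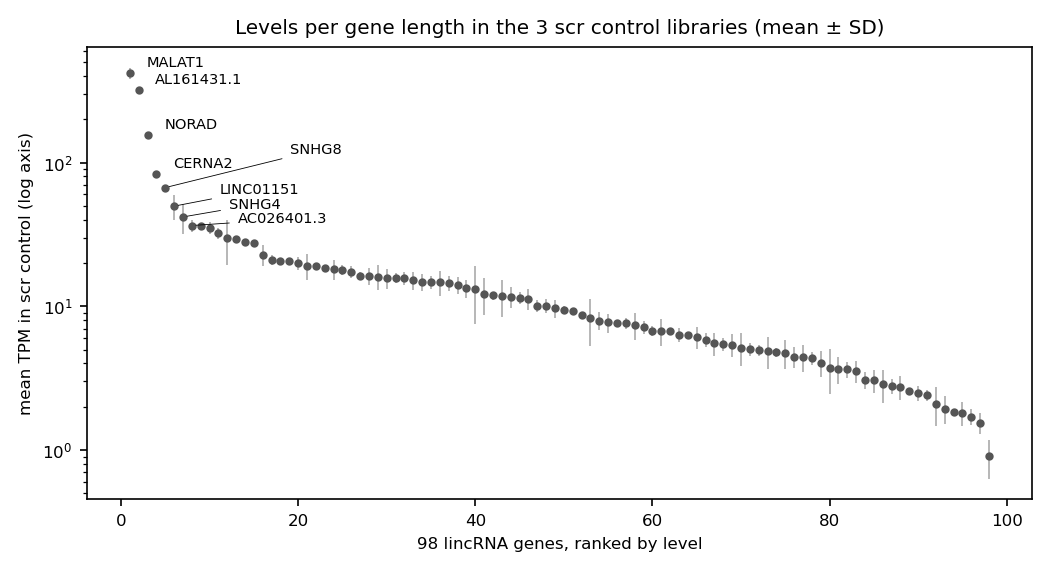
Mean TPM ± SD (log axis) of the 98 lincRNA genes in the 3 scr control libraries, ordered from the highest to the lowest. Levels run from 421 TPM for MALAT1 down to 0.905 TPM for CARMN, with the 8 labelled genes on the steep left end and 48 of the 98 at 10 TPM or more.

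More of the 98 genes were higher than lower after MPZL3 knockdown, and the shifts were small. With both shRNAs grouped, 16 genes were called higher (16.3%) and 3 lower (3.06%) at an edgeR adjusted p under 0.05, against a background of 9.38% higher and 6.53% lower among the 16928 genes tested. With shMPZL3 #1 the counts were 28 higher and 12 lower (background 16.9% and 15.4%), and with shMPZL3 #2 they were 13 higher and 5 lower (background 9.53% and 5.98%). Between shMPZL3 #2 and shMPZL3 #1, 3 genes were higher and 6 lower in #2, both below the background of 7.62% and 7.73%. The median log2 fold change of the 98 genes was 0.10 grouped, 0.11 with shMPZL3 #1 and 0.06 with shMPZL3 #2, beside 0.02, 0.01 and 0.0034 over all genes. Protein-coding genes of the same count rule were called higher in 10.0% and lower in 9.07% of cases in the grouped comparison. The skew was not particular to the 98 genes. Of the 651 other lincRNA genes tested, 7.22% were higher and 1.84% lower grouped, with a median log2 fold change of 0.26. These passed only the filter on low counts, which a gene high in 1 group can pass. Of 123 antisense genes of the same count rule, 7.32% were higher and 5.69% lower, with a median of 0.06. These shares are descriptions with no test, and the 2 shRNA comparisons share their control libraries.

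Changes of at least 2-fold came to 3 genes or fewer in each comparison. With a further limit of 1 on the size of the log2 fold change, 1 gene was higher and 0 lower in the grouped comparison (background 3.47% and 0.502%), 3 and 0 with shMPZL3 #1 (background 6% and 1.36%), 1 and 0 with shMPZL3 #2 (background 3.41% and 0.656%), and 0 and 2 in #2 against #1 (background 1.28% and 1.9%). Of the 10744 protein-coding genes, 193 were higher and 15 lower by this limit in the grouped comparison, 327 and 67 with shMPZL3 #1, and 197 and 38 with shMPZL3 #2. By library, 18 genes were higher in all 6 knockdown libraries than in all 3 scr libraries and 9 were lower, against 11.8% and 11% of all genes tested. Taken per shRNA, 11 genes were higher with each shRNA and 3 were lower with each, against 6.63% and 3.67% of all genes tested. In bulk libraries fewer cells expressing a gene and less RNA per cell cannot be told apart. No gene was called in opposite directions by the 2 shRNAs, 44 were called with at least 1 of them and 54 with neither. The grouped counts rested on the control libraries, since leaving out scr replicate 1 left 1 gene higher and 0 lower, and leaving out scr replicate 2 or 3 left 5 or 7 higher. AL590004.3 alone kept its grouped call in each of the 16 alternative fits, whereas 18 of the 40 calls with shMPZL3 #1 and 5 of the 18 with shMPZL3 #2 were kept in all 15 alternatives of those comparisons.

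**Figure D2:**
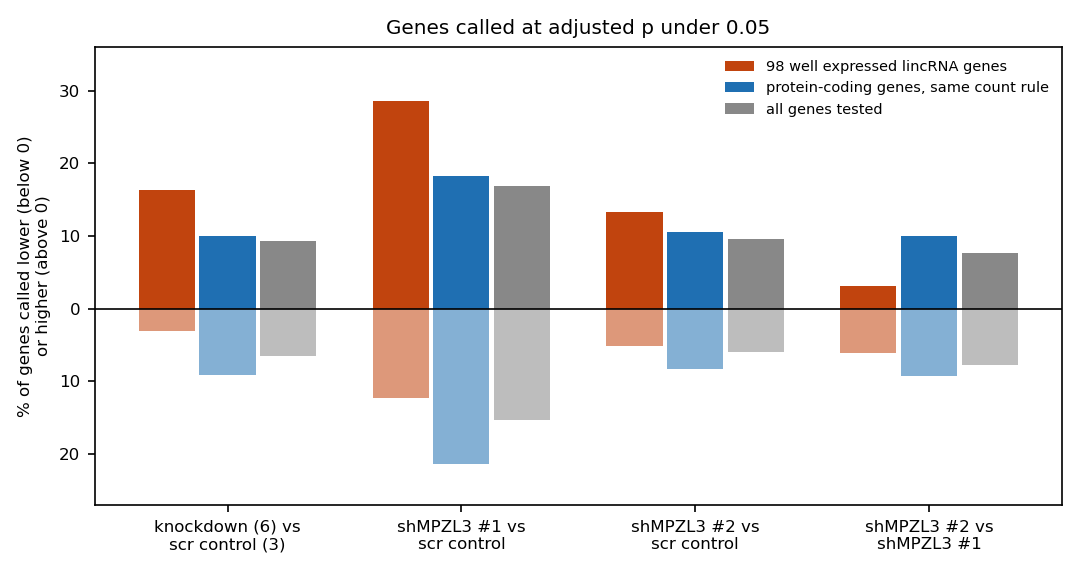
Percentage of genes called higher or lower (edgeR adjusted p under 0.05) in each of the 4 comparisons, for the 98 lincRNA genes, for protein-coding genes of the same count rule and for all genes tested. In the grouped comparison the lincRNA bars stand at 16.3% higher and 3.06% lower, beside 9.38% and 6.53% for all genes.

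AL590004.3 had the largest grouped rise. It is a gene with 1 exon at chr6:3904920-3911979 on the minus strand (GRCh38, GENCODE 29), with no assigned function. Its scr libraries held 118, 147 and 229.6 normalized counts (each count scaled to the mean of the TMM-adjusted library sizes), those of shMPZL3 #1 held 314, 533 and 474, and those of shMPZL3 #2 held 286, 416 and 392. All 6 knockdown libraries lay above the highest scr library, and the log2 fold change was 1.29 ± 0.24 grouped (SE, edgeR adjusted p = 0.00341), 1.42 with shMPZL3 #1 and 1.15 with shMPZL3 #2. Its nearest protein-coding gene, FAM50B, lies 53600 bases away and was not called (grouped log2 fold change -0.09, edgeR adjusted p = 0.729). The start of its longest transcript is shown because the gene has no descriptive name and the sequence identifies it. It gives the first 120 bases from the 5′ end (GENCODE 29), with nothing marked in capitals.
AL590004.3: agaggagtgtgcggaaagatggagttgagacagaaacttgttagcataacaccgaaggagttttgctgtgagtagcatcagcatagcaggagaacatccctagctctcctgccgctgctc

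AL161431.1 lies at chr13:109269634-109278512 on the plus strand and was the most abundant gene that rose with both shRNAs. It had 10023, 9872 and 10714 normalized counts in scr, 14171, 12940.5 and 13467 with shMPZL3 #1 and 12957, 12821 and 15007 with shMPZL3 #2. The groups did not overlap, and the rise was nearly equal for the 2 shRNAs, with a log2 fold change of 0.41 for each (edgeR adjusted p = 0.00378 and 0.00711). The nearest protein-coding gene, MYO16, an unconventional myosin, lies 61627 bases away and rose as well (grouped log2 fold change 1.16, edgeR adjusted p = 0.0245), from a much lower mean of 23.0 normalized counts in scr.

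The other 5 of the 6 largest rises shared by both shRNAs were AC090114.2, AL356234.3, AC245297.3, AC092368.3 and LINC01547, with grouped log2 fold changes of 0.67 to 0.93. AC090114.2 had 108, 114 and 96.2 normalized counts in scr, 258, 179 and 265 with shMPZL3 #1 and 153, 129 and 228 with shMPZL3 #2. Its 6 knockdown libraries all exceeded scr, but those of shMPZL3 #2 came close to it (log2 fold change 0.69, edgeR adjusted p = 0.0433, against 1.14 with shMPZL3 #1, edgeR adjusted p = 0.000734). AC245297.3 had 82.4, 94.3 and 115 in scr, 186, 150.03 and 189 with shMPZL3 #1 and 167, 185 and 167 with shMPZL3 #2. The 2 shRNAs gave nearly the same shift for it, 0.85 and 0.83 on the log2 scale.

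AL356234.3 (chr6:137693068-137700415) had 132, 269.8 and 245 normalized counts in scr, 406, 383 and 326 with shMPZL3 #1 and 421, 485 and 343 with shMPZL3 #2. The scr library with the lowest value was replicate 1, and no knockdown library reached down to the highest scr value (grouped log2 fold change 0.86 ± 0.20, edgeR adjusted p = 0.0126). The nearest protein-coding gene is TNFAIP3, 166773 bases away, which encodes the ubiquitin-editing inhibitor of NF-kB signalling A20. TNFAIP3 also rose (grouped log2 fold change 0.79, edgeR adjusted p = 0.0456), more with shMPZL3 #2 than with #1 (difference 0.75, edgeR adjusted p = 0.000801), a difference not called for AL356234.3 (0.16).

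AC092368.3 (chr16:46622861-46624451, minus strand) had 116, 90.5 and 161 normalized counts in scr, 205, 218 and 293 with shMPZL3 #1 and 176, 178 and 228 with shMPZL3 #2, again with no overlap. It lies 1235 bases from SHCBP1, a gene of dividing cells, which fell (grouped log2 fold change -0.74, edgeR adjusted p = 0.00151) while AC092368.3 rose (0.83 ± 0.22, edgeR adjusted p = 0.0203). LINC01547 (chr21:44932814-44939913, minus strand) had 229, 307 and 252 in scr, 382, 483 and 468 with shMPZL3 #1 and 418, 359 and 401 with shMPZL3 #2. Its start lies 97 bases from that of FAM207A on the opposite strand, and both genes rose (0.67 and 0.46, edgeR adjusted p = 0.00764 and 0.0457). The annotated spans of the pair do not overlap, and LINC01547 shares no exonic base with another gene. Since the libraries carry no strand information, reads from any overlap outside the annotation could not be told apart.

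**Figure D3:**
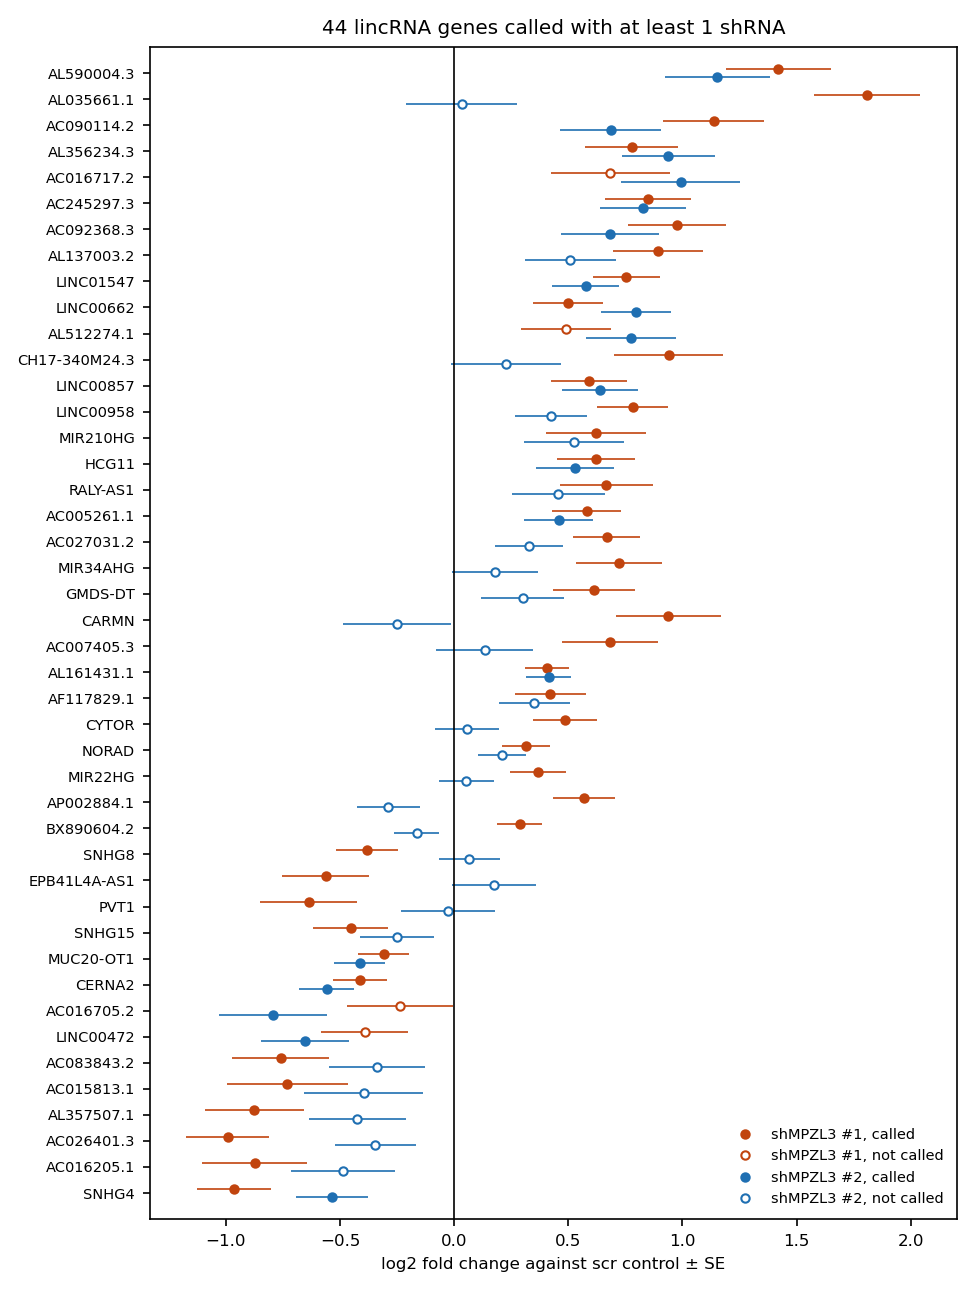
Log2 fold change ± SE against scr control for the 44 lincRNA genes called with at least 1 shRNA, ordered by the grouped log2 fold change, with 1 point for each shRNA and filled points for calls at an edgeR adjusted p under 0.05. AL590004.3 has the highest grouped value at 1.29 among calls shared by both shRNAs, and AL035661.1 shows the widest gap between its points, 1.81 against 0.03.

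The remaining genes higher with both shRNAs, besides AL161431.1, were HCG11, LINC00662, LINC00857 and AC005261.1, of which HCG11, LINC00857 and AC005261.1 are named here after their values were seen. LINC00662, on a list of lincRNAs linked to cancer and invasion, had 319, 306 and 316 normalized counts in scr, 365, 519.6 and 444 with shMPZL3 #1 and 447, 636 and 551 with shMPZL3 #2. Every knockdown library was above scr, with a log2 fold change of 0.50 with shMPZL3 #1 (edgeR adjusted p = 0.0185) and 0.80 with shMPZL3 #2 (edgeR adjusted p = 0.00149). LINC00857 had 174, 228 and 216 in scr, 243, 328 and 363 with shMPZL3 #1 and 327, 336 and 303.6 with shMPZL3 #2 (grouped log2 fold change 0.62 ± 0.15, edgeR adjusted p = 0.0174).

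Fewer genes fell, and the 3 that fell with both shRNAs were SNHG4, CERNA2 and MUC20-OT1. SNHG4 (chr5:139274102-139284899), the host transcript of the snoRNAs SNORA74A and SNORA74D, had 1499, 1039 and 982 normalized counts in scr, 681, 655 and 467 with shMPZL3 #1 and 881, 836 and 711 with shMPZL3 #2. All 6 knockdown libraries were below all 3 of scr, of which replicate 1 was the highest, and the grouped log2 fold change was -0.73 ± 0.18 (edgeR adjusted p = 0.016). Without that library the edgeR adjusted p was 0.124 grouped and 0.209 with shMPZL3 #2. Of its exonic bases, 16.6% are shared with other genes on either strand. Of these genes SIL1, on the opposite strand, had the most counts, and SIL1 rose with shMPZL3 #1 (0.54, edgeR adjusted p = 0.00123). CERNA2 (chr10:84167228-84172093, minus strand), among the 4 highest in level per length, had 1034, 916 and 965 in scr, 774, 769 and 645 with shMPZL3 #1 and 665, 744 and 572 with shMPZL3 #2. Its groups were also apart, with a log2 fold change of -0.41 with shMPZL3 #1 (edgeR adjusted p = 0.0128) and -0.56 ± 0.12 with shMPZL3 #2 (edgeR adjusted p = 0.0037). MUC20-OT1 fell least (grouped log2 fold change -0.36 ± 0.10, edgeR adjusted p = 0.0277) and lost its calls without any 1 of the scr libraries. It shares 24.1% of its exonic bases with other genes on either strand. Of these genes MUC20, on the same strand, had the most counts, and MUC20 rose with shMPZL3 #1 (0.58, edgeR adjusted p = 0.0012).

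Most of the snoRNA hosts fell with shMPZL3 #1. Their introns carry snoRNAs that guide chemical modification or processing of ribosomal and other RNAs, and the spliced host transcript is what a poly-A library measures. Of the 5 hosts among the 98 genes (SNHG4, SNHG8, SNHG15, EPB41L4A-AS1 and LINC02001), 4 fell with shMPZL3 #1, with a median log2 fold change of -0.45 over the 5, and 1 fell with shMPZL3 #2, with a median of 0.0012. Beside these, 12.2% of the 98 genes and 15.4% of all genes fell with shMPZL3 #1. SNHG15 fell by 0.45 on the log2 scale (edgeR adjusted p = 0.0409), a call lost in 7 of 15 alternative fits (adjusted p up to 0.266), and LINC02001, the host of SNORD7, was not called (-0.15, edgeR adjusted p = 0.661).

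SNHG8 and EPB41L4A-AS1 separated the shRNAs directly. SNHG8, the host of SNORA24, had 375, 376 and 411 normalized counts in scr, 316, 290.1 and 286 with shMPZL3 #1 and 448, 423 and 347 with shMPZL3 #2. It was lower with shMPZL3 #1 (-0.38 ± 0.14, edgeR adjusted p = 0.0388), not called with shMPZL3 #2 (0.07, edgeR adjusted p = 0.784), and higher in #2 than in #1 by 0.45 ± 0.13 (edgeR adjusted p = 0.0301). The calls of SNHG8 were lost in 9 and 4 of 15 alternative fits, with an adjusted p of up to 0.125 against scr (without scr replicate 3) and 0.149 between the shRNAs (without shMPZL3 #2 replicate 1). EPB41L4A-AS1, the host of SNORA13 and a member of the list on growth arrest and stress, had 190.1, 141 and 155 in scr, 121, 113 and 93.6 with shMPZL3 #1 and 169, 205 and 173 with shMPZL3 #2. Every library of shMPZL3 #1 was below every other library, and #2 exceeded #1 by 0.74 (edgeR adjusted p = 0.0114, or 0.0565 without shMPZL3 #1 replicate 3). It shares 49.6% of its exonic bases with other genes on either strand. Of these genes EPB41L4A, on the opposite strand, had the most counts, and EPB41L4A rose with shMPZL3 #1 (0.63, edgeR adjusted p = 0.00172).

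The genes for the protein partners of the snoRNAs were examined beside the hosts. Of 9 core snoRNP protein genes, which encode the enzymes and scaffolds that bind the guide RNAs, 6 fell with shMPZL3 #1, 1 with shMPZL3 #2 and 6 were higher in #2 than in #1, beside 21.4%, 8.30% and 9.99% of protein-coding genes of the count rule above. FBL, the methyltransferase fibrillarin, fell by 0.74 on the log2 scale with shMPZL3 #1 (edgeR adjusted p = 0.0002) and was higher in #2 than in #1 by 0.67 (edgeR adjusted p = 0.0011). NOP58 was lower in the grouped comparison (-0.57, edgeR adjusted p = 0.0231). Of 10 genes of nonsense-mediated decay, which degrades many spliced host transcripts, 0 were called with shMPZL3 #1 and 1, SMG1, fell with shMPZL3 #2 (-0.34).

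The 26 genes called with shMPZL3 #1 and not with #2 comprised 17 that were higher and 9 that were lower. A direct test between the shRNAs called 9 of these 26, so that for the other 17 a difference between the shRNAs was not shown. AL035661.1 (chr20:24931840-24932983) differed most. It had 95.7, 79.2 and 68.7 normalized counts in scr, 180.3, 313 and 361 with shMPZL3 #1 and 81.0, 83.2 and 84.9 with shMPZL3 #2. Only the shMPZL3 #1 libraries stood above scr (log2 fold change 1.81 ± 0.23, edgeR adjusted p = 2.18e-05), with #2 at the level of scr (0.03 ± 0.24) and below #1 by 1.78 on the log2 scale (edgeR adjusted p = 5.17e-05).

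CARMN (chr5:149406689-149432835), a lincRNA known from cardiac and smooth muscle cells, had 137, 92.4 and 77.0 normalized counts in scr, 160.2, 248 and 178 with shMPZL3 #1 and 81.0, 78.1 and 97.0 with shMPZL3 #2. The shMPZL3 #1 libraries were above all others, and #2 was lower than #1 by 1.19 on the log2 scale (edgeR adjusted p = 0.00179). AP002884.1 (chr11:112270749-112362534) had 352, 444 and 465 in scr, 584, 590.2 and 697 with shMPZL3 #1 and 364, 310.4 and 359 with shMPZL3 #2. Here too the libraries of shMPZL3 #1 lay above all 6 others, and the difference of #2 from #1 was -0.86 ± 0.14 (edgeR adjusted p = 0.000364). CH17-340M24.3 (chrX:154424380-154428479, minus strand, 153 bases from ATP6AP1) had 78.4, 102 and 77.0 in scr, 213, 109 and 174 with shMPZL3 #1 and 115, 98.4 and 90.2 with shMPZL3 #2. Its replicate 2 of shMPZL3 #1 fell inside the range of shMPZL3 #2, and the difference was -0.71 ± 0.23 (edgeR adjusted p = 0.0436), lost in 8 of the 9 fits that left out a library.

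AC026401.3 (chr16:15701237-15702118), inside the span of NDE1, went the other way. It had 193, 187 and 225 normalized counts in scr, 104, 116 and 83.2 with shMPZL3 #1 and 158, 154 and 163 with shMPZL3 #2. All shMPZL3 #1 libraries were below all others, with a log2 fold change of -0.99 ± 0.18 (edgeR adjusted p = 0.000461), and #2 was higher than #1 by 0.65 ± 0.18 (edgeR adjusted p = 0.0208, or 0.0937 without shMPZL3 #1 replicate 3, 0.0589 without #2 replicate 1 and 0.0769 without #2 replicate 3). Only 4 genes were called with shMPZL3 #2 and not with #1, of which AC016717.2 and AL512274.1 were higher and AC016705.2 and LINC00472 lower, and 0 of these 4 were called between the shRNAs. These 4 genes, other than LINC00472 as an miRNA host, fall outside the rule for named genes and are named because they are all of their kind.

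**Figure D4:**
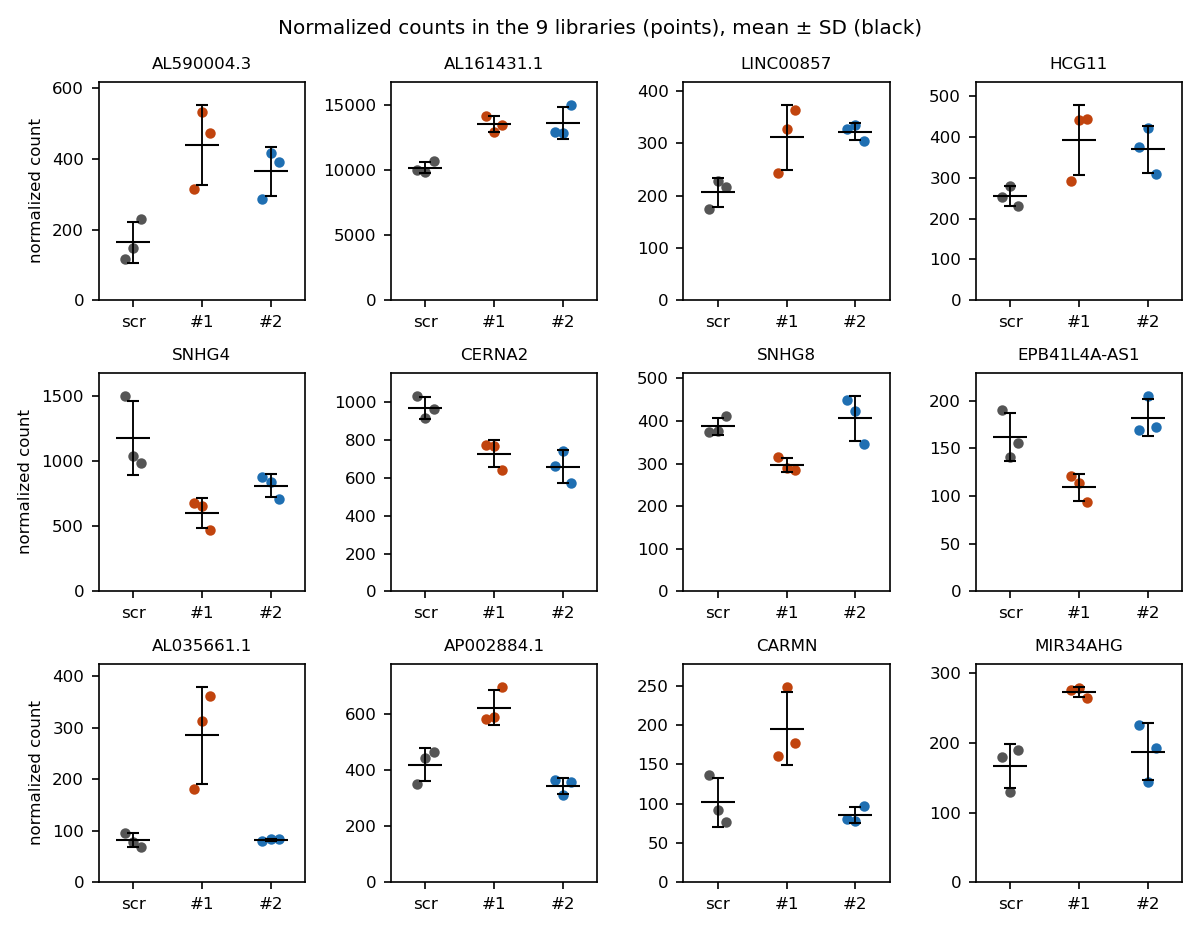
Normalized counts of 12 lincRNA genes in each library, with 1 point per library and the mean ± SD (n = 3) for scr control, shMPZL3 #1 and shMPZL3 #2. AL590004.3 is above scr in all 6 knockdown libraries, SNHG4 and CERNA2 are below it in all 6, and AL035661.1, CARMN and AP002884.1 are raised in the shMPZL3 #1 libraries.

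The nuclear RNAs MALAT1, NEAT1 and XIST were lower in most knockdown libraries, and whether they passed the test turned on the fit. MALAT1 (chr11:65497688-65506516) and NEAT1 (chr11:65422774-65445540), neighbours on chromosome 11, organize nuclear speckles and paraspeckles, and XIST coats the inactive X chromosome. How fully and how evenly the poly-A selected libraries captured MALAT1 and NEAT1 was not tested. MALAT1 had 21052, 24512 and 24313 normalized counts in scr, 5372, 30732 and 6177 with shMPZL3 #1 and 8140.1, 17071 and 4714 with shMPZL3 #2. The library of shMPZL3 #1 replicate 2 exceeded every scr library while the other 5 knockdown libraries lay below all 3, and the grouped log2 fold change was -0.95 ± 0.62 (edgeR adjusted p = 0.345, exact permutation p = 0.119, two-sided). NEAT1 had 2812, 3056 and 2908 in scr, 1481, 2852 and 2198 with shMPZL3 #1 and 1953, 2625 and 2012 with shMPZL3 #2 (grouped log2 fold change -0.42 ± 0.16, edgeR adjusted p = 0.0871). With no filter on low counts NEAT1 was called lower (edgeR adjusted p = 0.00637 grouped, 0.00189 with shMPZL3 #1 and 0.00525 with #2), and DESeq2 called it with #1 (adjusted p = 0.0431).

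XIST had 2800.3, 2496 and 2444 normalized counts in scr, 1803, 2790.0 and 2013 with shMPZL3 #1 and 1921, 2346 and 1949.6 with shMPZL3 #2 (grouped log2 fold change -0.27 ± 0.13, edgeR adjusted p = 0.165). Of its exonic bases, 30.5% are shared with other genes, of which TSIX, on the opposite strand, had the most counts. In MALAT1, NEAT1 and XIST alike, the library numbered 2 was the highest of its group for both shRNAs. Without shMPZL3 #1 replicate 2, a choice of library made among the planned fits that left out each in turn, all of these passed the grouped test as lower, with log2 fold changes of -1.50 (edgeR adjusted p = 0.0474), -0.52 (edgeR adjusted p = 0.0265) and -0.37 (edgeR adjusted p = 0.025). That library held the highest knockdown value of each gene, so leaving it out lowers the knockdown mean by construction. These values therefore do not show a fall. Of the 5 genes on the nuclear and chromatin list that are among the 98, 0 were called in the grouped comparison and 1, NORAD, with shMPZL3 #1. FTX, an activator of XIST, had a grouped log2 fold change of -0.09 (edgeR adjusted p = 0.742).

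**Figure D5:**
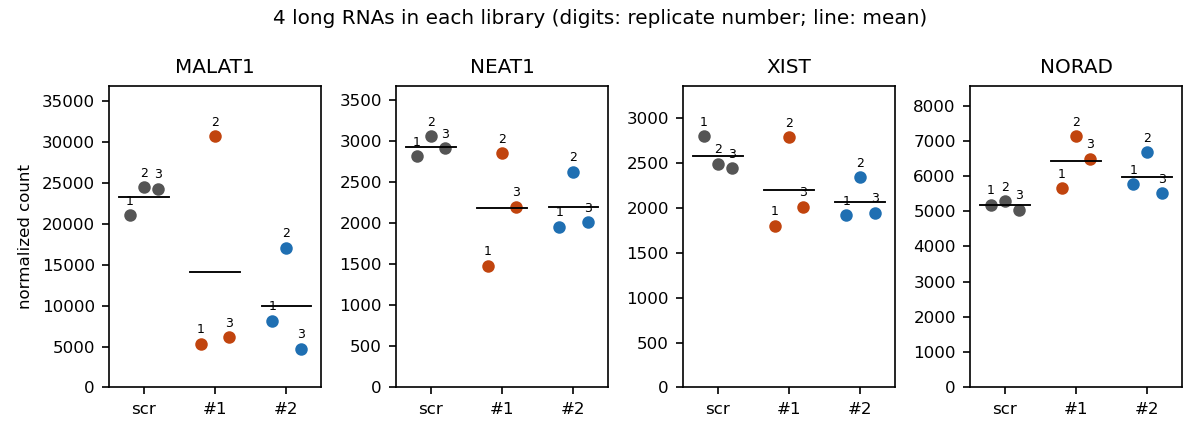
Normalized counts of MALAT1, NEAT1, XIST and NORAD in each library, with the replicate number above each point and a line at the group mean. The libraries numbered 2 are the highest of both shRNA groups for all 4 genes, and MALAT1 ranges from 4714 to 30732.

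Genes for paraspeckle proteins, the partners of NEAT1, were examined beside it. Of 12 such genes, 7 fell in the grouped comparison, 10 with shMPZL3 #1 and 2 with shMPZL3 #2, with median log2 fold changes of -0.35, -0.47 and -0.23, and 0 rose. Of protein-coding genes of the count rule above, 9.07%, 21.4% and 8.30% fell in these comparisons. PSPC1, which encodes paraspeckle component 1, fell by 0.66 on the log2 scale in the grouped comparison (edgeR adjusted p = 0.0005) and by 0.69 with shMPZL3 #2. TARDBP, which encodes the RNA-binding protein TDP-43, was the other gene called with shMPZL3 #2, and its grouped log2 fold change was -0.44 (edgeR adjusted p = 0.0098). Of 16 genes of nuclear RNA decay, the exosome and its adaptors that degrade many unstable nuclear transcripts, 3 fell in the grouped comparison (EXOSC2, EXOSC9 and MTREX), 10 with shMPZL3 #1 and 1 with shMPZL3 #2, and 5 were higher in #2 than in #1. Of protein-coding genes of the count rule above, 9.07% fell grouped, 21.4% with #1 and 8.30% with #2, and 9.99% were higher in #2 than in #1. Over all genes these shares were 6.53%, 15.4%, 5.98% and 7.62%.

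NORAD and HCG11 carry many copies of the element bound by Pumilio proteins, RNA-binding proteins that repress their target mRNAs, and NORAD is known as a decoy for them. The element was searched as TGTANATA on the given strand of the longest transcript of each gene. NORAD held 15 copies in 5339 bases and HCG11 held 16 in 5696, which is 2.81 per 1000 bases in both, against 0.203 over the longest transcripts of the 98 genes and 0.085 over the 14252 lincRNA transcripts of GENCODE 29 of at least 200 bases. In all, 26 of the 98 genes had at least 1 copy. The 150 bases with the most copies are shown for both, at bases 1099 to 1248 of NORAD-201 and 1302 to 1451 of HCG11-201, with the elements in capitals. A match of letters does not show binding.
NORAD: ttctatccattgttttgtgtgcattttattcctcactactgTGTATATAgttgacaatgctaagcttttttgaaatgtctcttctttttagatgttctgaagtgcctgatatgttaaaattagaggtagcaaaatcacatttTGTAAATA
HCG11: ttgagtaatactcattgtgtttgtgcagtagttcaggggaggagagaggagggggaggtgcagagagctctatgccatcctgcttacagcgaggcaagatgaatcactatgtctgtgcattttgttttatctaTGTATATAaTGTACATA

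NORAD (chr20:36045622-36050960, minus strand) had 5188, 5280.1 and 5037 normalized counts in scr, 5659, 7128 and 6485 with shMPZL3 #1 and 5762, 6672 and 5516 with shMPZL3 #2. All knockdown libraries exceeded the highest of scr, but the rise passed the test only with shMPZL3 #1 (0.31 ± 0.11, edgeR adjusted p = 0.0295), and the grouped value was 0.26 ± 0.11 (edgeR adjusted p = 0.101). Its call with shMPZL3 #1 was lost without any 1 of the scr libraries (edgeR adjusted p = 0.0751 to 0.108). HCG11 (chr6:26521709-26527404) had 253, 279 and 231 in scr, 293, 440.2 and 443 with shMPZL3 #1 and 376, 422 and 309 with shMPZL3 #2. Its lowest knockdown library, at 293, was just above the highest of scr, and it rose with both shRNAs, by 0.62 and 0.53 on the log2 scale (edgeR adjusted p = 0.00977 and 0.0428).

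The 98 genes include 14 that span miRNA genes on the same strand. The mature miRNAs are shown because they name what these host transcripts can give rise to, although a poly-A library measures the host and not the miRNA. RefSeq (GRCh38.p14) gave 31 mature sequences for 19 of the 24 miRNA genes, with 30 different seeds. Bases 2 to 8, the seed that pairs with target mRNAs, are in capitals. The only seed shared by different miRNAs was that of miR-30a and miR-30c, both within LINC00472, and miR-4435 has a gene in both CYTOR and MIR4435-2HG.
hsa-miR-30a-5p: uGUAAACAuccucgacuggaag
hsa-miR-30c-5p: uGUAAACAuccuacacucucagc
hsa-miR-4435: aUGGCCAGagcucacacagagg
hsa-miR-22-3p: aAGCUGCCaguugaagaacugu
hsa-miR-34a-5p: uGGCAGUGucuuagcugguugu
hsa-miR-210-3p: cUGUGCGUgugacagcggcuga
hsa-miR-143-3p: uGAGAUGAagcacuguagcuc
hsa-miR-145-5p: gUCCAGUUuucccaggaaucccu
hsa-miR-570-3p: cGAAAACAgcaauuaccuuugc

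Of the 14 miRNA hosts, 5 rose and 3 fell with shMPZL3 #1, and 0 rose and 2 fell with shMPZL3 #2, beside 16.9% and 15.4% of all genes with #1 and 9.53% and 5.98% with #2. With so few hosts these counts are a description. MIR34AHG, the host of miR-34a and a target of p53, had 179.5, 130.2 and 189.7 normalized counts in scr, 276, 278 and 265 with shMPZL3 #1 and 226, 144 and 192 with shMPZL3 #2. The libraries of shMPZL3 #1 were above all others (log2 fold change 0.72 ± 0.19, edgeR adjusted p = 0.00646), while those of #2 overlapped scr (0.18, edgeR adjusted p = 0.566), and the difference between the shRNAs missed the threshold (-0.54, edgeR adjusted p = 0.0521). With DESeq2, with upper-quartile normalization and with other filters on low counts it passed, at adjusted p of 0.0375 to 0.0454. Its nearest protein-coding gene, GPR157, 18841 bases away, rose in the grouped comparison (0.80, edgeR adjusted p = 0.0067).

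MIR22HG, the host of miR-22, had 339, 356 and 371 normalized counts in scr, 438, 475 and 462 with shMPZL3 #1 and 364, 357 and 384 with shMPZL3 #2. Only shMPZL3 #1 stood apart from scr (0.37 ± 0.12, edgeR adjusted p = 0.0273), with 0.05 for #2 (edgeR adjusted p = 0.812), and without scr replicate 1 the adjusted p with shMPZL3 #1 was 0.105. MIR210HG, the host of the hypoxia-responsive miR-210, rose with shMPZL3 #1 (0.62 ± 0.22, edgeR adjusted p = 0.0369) and had a value of 0.52 with #2 that missed the threshold (edgeR adjusted p = 0.116). LINC00472, with miR-30a and miR-30c, had 162, 178 and 151 in scr, 131, 124 and 120.1 with shMPZL3 #1 and 129.6, 93.3 and 90.9 with shMPZL3 #2. All 6 knockdown libraries were below scr, and the fall was called with shMPZL3 #2 (-0.65 ± 0.19, edgeR adjusted p = 0.0266) and not with #1 (-0.39, edgeR adjusted p = 0.125). CARMN hosts miR-143 and miR-145, and MUC20-OT1 hosts miR-570.

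CYTOR and MIR4435-2HG arose by duplication and are near-identical over long stretches, so that the division of reads between them is uncertain. CYTOR had 245, 303.7 and 282 normalized counts in scr, 372, 382 and 411 with shMPZL3 #1 and 303, 258 and 304.4 with shMPZL3 #2. It was higher with shMPZL3 #1 than in all other libraries (0.49 ± 0.14, edgeR adjusted p = 0.0125), and #2 was lower than #1 by 0.43 on the log2 scale (edgeR adjusted p = 0.042), a call lost in 7 of the 9 fits that left out a library. MIR4435-2HG was lower in all 6 knockdown libraries than in scr, but its grouped log2 fold change of -0.18 ± 0.10 did not pass (edgeR adjusted p = 0.249).

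On the list of growth arrest, stress and senescence, 3 of 12 genes were among the 98, of which 2 rose (MIR22HG and MIR34AHG) and 1 fell (EPB41L4A-AS1) with shMPZL3 #1 and 0 were called with #2 or in the grouped comparison. On the list of cancer, invasion and EMT, 5 of 24 were among the 98, with 1 called in the grouped comparison (LINC00662, higher), 2 higher and 1 lower with shMPZL3 #1 and 1 higher with #2. Over all genes the shares were 9.38% higher grouped, 16.9% higher and 15.4% lower with #1, and 9.53% higher with #2. PVT1, which neighbours MYC, had 148, 186 and 124 normalized counts in scr, 90.6, 84.5 and 120.1 with shMPZL3 #1 and 127, 166 and 159 with shMPZL3 #2. It fell with shMPZL3 #1 (-0.64 ± 0.21, edgeR adjusted p = 0.0272, or 0.172 without scr replicate 2) and not with #2 (-0.02, edgeR adjusted p = 0.954), while MYC, 53099 bases away, fell with #1 (-0.42, edgeR adjusted p = 0.00631) and rose with #2 (0.50, edgeR adjusted p = 0.00348). UCA1, a lincRNA linked to urothelial and other carcinomas, was not called (grouped log2 fold change -0.09 ± 0.15, edgeR adjusted p = 0.719). None of the 9 genes on the list of interferon and NF-kB responsive RNAs was among the 98. HCP5 had at least 89 counts in every library but does not have the biotype lincRNA, and the other 8 had a lowest count under 50.

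The nearest protein-coding gene was examined beside each lincRNA gene. A tested neighbour was at hand for 85 of the 98. In the grouped comparison 19 of the 85 lincRNA genes were called, and the neighbour was called in the same direction for 5, in the opposite direction for 1 (AC092368.3 with SHCBP1) and not at all for 13. With shMPZL3 #1, 34 were called, with 8 neighbours in the same direction, 7 opposite and 19 not called. With shMPZL3 #2 the numbers were 18 called, 5 the same, 2 opposite and 11 not called. Of the 85 neighbours, 19, 34 and 21 were called in these comparisons, shares near the 19.1%, 39.6% and 18.8% of protein-coding genes of the same count rule. In #2 against #1, 6 of the lincRNA genes and 23 of the neighbours were called, with 0 pairs called together. The share of those protein-coding genes was 19.2% there. Across the 85 pairs, which are not independent replicates and share their libraries, Spearman's rho between the log2 fold changes was 0.12 in the grouped comparison, 0.15 with shMPZL3 #1, 0.16 with #2 and 0.30 between the shRNAs. Over the 18 pairs that lie within 1000 bases without overlap it was 0.37, 0.24, 0.45 and 0.60. Over the 18 pairs with an overlapping neighbour it was -0.17, -0.12, 0.16 and 0.19.

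By place and name, the grouped calls were spread as follows. Of 59 genes that share no exonic base with another gene, 14 rose and 1 fell in the grouped comparison, whereas of 17 genes that share at least 10% of their exonic bases, 0 rose and 2 fell. Because the reads are not stranded, the counts of the 17 can hold reads of the overlapping gene. Of 40 genes known only by a clone name, 11 rose and 0 fell, and of 58 with a descriptive or numbered name, 5 rose and 3 fell. Of the 26 genes with a single exon, 8 rose and 0 fell. Over the 98 genes 16.3% rose and 3.06% fell, and over all genes 9.38% and 6.53%. These are counts with no test, and the classes overlap.

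The promoters were searched for letters that common transcription factors bind. RefSeq promoter windows, 250 bases before to 50 after the start (GRCh38.p14), were given for 54 of the 98 genes, 40 matched by symbol and 14 by gene ID, and 49 had a start within 1000 bases of the GENCODE start. Their median GC content was 63.7%, against 58.7% over all 35116 windows. A gene was counted if any of its windows within 1000 bases of the GENCODE start held the motif. Over all windows each window was counted singly, so the 2 shares differ in unit. On both strands, the AP-1 motif TGANTCA occurred in 6.12% of the 49 genes and in 7.71% of all windows. The interferon response element was found in 6.12% and 3.57%, and the NF-kB motif in 2.04% and 0.558%. The E2F motif TTTCCCGC was found in 2.04% and 1.63%, the other E2F motif TTTGGCGC in 0 of the 49 genes and 0.652% of all windows, and TATAAA in 2.04% and 11.5%. The window of AP002884.1, higher with shMPZL3 #1, is shown because it held both an NF-kB and an AP-1 match, which do not overlap and are in capitals, at chr11:112270499-112270798 on the plus strand. The matches are descriptions of letters and not of binding.
AP002884.1: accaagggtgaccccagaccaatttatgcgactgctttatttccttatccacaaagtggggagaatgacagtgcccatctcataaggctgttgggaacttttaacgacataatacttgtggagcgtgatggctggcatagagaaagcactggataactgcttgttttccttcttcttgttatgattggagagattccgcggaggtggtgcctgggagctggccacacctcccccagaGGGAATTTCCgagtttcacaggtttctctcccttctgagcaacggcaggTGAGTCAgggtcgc

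The limit of 50 counts separated genes with nearly equal lowest counts. Just inside it were AL035661.1 and LINC01186, each with a lowest count of 50, and AP006621.3 and LINC01315, each with 51. Just outside were AC092807.3, MIR222HG and MIRLET7BHG with a lowest count of 49 and LINC00467 with 48. In all, 100 further lincRNA genes reached 50 counts in all 3 libraries of at least 1 group but not in all 9 libraries, and 87 of them did so in an shRNA group and not in scr. The limit was on raw counts, and scr replicates 1 and 3 had the smallest libraries, with 15424355 and 15040102 total counts. The grouped log2 fold changes of the 87 ran from -0.42 to 2.49, so not all of them were higher after knockdown. The part of library size was not tested. A gene can also pass the limit through a group where it is high, so no separate count of calls is given for these genes.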

How the data were processed

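Poly-A selected, non-directional RNA-seq libraries of OVCAR4 cells were analysed, 3 each of scr control, shMPZL3 #1 and shMPZL3 #2, grouped by their labels. The deposited values are raw counts per gene, which the authors did not normalize or pool. The submitters' processing notes name HISAT2 2.0.5, featureCounts 1.5.0-p3 and hg38, and all 58735 genes matched GENCODE 29. The OVCA433 libraries were not analysed here.

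Counts were filtered with edgeR's filterByExpr, which left 16928 genes and kept all 98 members, and scaled by TMM (factors 0.983 to 1.03). Two-sided quasi-likelihood tests (edgeR 4.0.16, limma 3.58.1, R 4.3.3) compared the 6 knockdown with the 3 scr libraries, and each shRNA with scr and with the other in a fit of 3 groups. P-values were adjusted by Benjamini-Hochberg over all 16928 genes and called under 0.05. The SE is the absolute log2 fold change divided by the square root of the F statistic. Log2 CPM used a prior count of 2. Exact permutation tests cannot go below p = 0.0119 for 6 libraries against 3 and 0.1 for 3 against 3. DESeq2 1.42.0, other filters, a replicate block and leaving out each library served as alternatives. Tables were made in Python 3.11.15 with numpy 2.4.6 and pandas 2.3.3, and the edgeR script was tested on simulated data. No replicates agreed within counting noise. P-values reflect the spread between libraries.

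The members, the role and partner lists and the tests were chosen with earlier results of these data known. Named genes were the 8 members with the highest TPM in scr, the 6 largest rises and falls shared by both shRNAs, the 4 largest differences between the shRNAs in each direction, members on the role lists, and the genes around the 50-count threshold. The snoRNA and miRNA hosts were described as groups, and individual hosts outside that rule were named after their values were seen. The gene length given in the table was used for TPM only.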

Additional observations from a re-analysis of the deposited data

Results flagged for a closer look

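For 8 of the named lincRNA genes the difference between the shRNAs itself passed the test, as log2 values of shMPZL3 #2 minus shMPZL3 #1 (edgeR's quasi-likelihood test, adjusted over all genes tested). The value was negative for AL035661.1 (-1.78), CARMN (-1.19), AP002884.1 (-0.86), CH17-340M24.3 (-0.71) and CYTOR (-0.43). It was positive for EPB41L4A-AS1 (0.74), AC026401.3 (0.65) and SNHG8 (0.45). All 8 were called with shMPZL3 #1 against scr and not with shMPZL3 #2. MPZL3 itself was lower with shMPZL3 #1 than with #2 (1.28 ± 0.16, edgeR adjusted p = 3.46e-05), and the part of this difference in the 8 genes was not tested. The calls of AL035661.1, CARMN and AP002884.1 between the shRNAs were kept in all 15 alternative fits of that comparison, as was that of BX890604.2 (-0.45 ± 0.10, edgeR adjusted p = 0.00473), which the rule for named genes did not include. Groups of 3 libraries are too small for the test of a single library that stands apart.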

How the results depend on the processing

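In the grouped comparison, the number of members called higher was 16 in the reported fit, 26 as the mean of the 2 shRNAs in the fit of 3 groups, 30 with at least 20 counts as the rule for members, 9 with at least 100 counts and 1 with calls limited to log2 shifts of 1 or more. The number called lower was 3, and 7 with DESeq2, 9 as the mean of the 2 shRNAs, 5 with no filter on low counts, 9 with at least 20 counts and 0 with that limit on the shift. With shMPZL3 #1 the rules of 20 counts, 100 counts and a log2 shift of 1 gave 50, 15 and 3 higher and 22, 6 and 0 lower. With shMPZL3 #2 they gave 25, 7 and 1 higher and 11, 3 and 0 lower. In #2 against #1 they gave 9, 1 and 0 higher and 17, 3 and 2 lower.

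Leaving out each library in turn gave 1 to 17 higher and 0 to 7 lower in the grouped comparison, 20 to 31 and 5 to 12 with shMPZL3 #1, 6 to 13 and 1 to 7 with shMPZL3 #2, and 1 to 4 and 4 to 7 in #2 against #1. The lowest counts against scr came without scr replicate 1, with 1 and 0 grouped, 5 lower with shMPZL3 #1, and 6 higher and 1 lower with shMPZL3 #2. Without shMPZL3 #1 replicate 3 the calls with shMPZL3 #1 were also 5 lower. Without shMPZL3 #1 replicate 2 or shMPZL3 #2 replicate 2 the grouped calls were 7 lower. The cause was not tested. Fits with fewer libraries have fewer degrees of freedom. Of the named results, 100 calls were lost and 17 were gained over the fits that left out a library, and 9 and 23 over the other alternatives. No named member changed direction where it was called.

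The replicate numbers were not taken as a pairing, because the correlation of same-numbered libraries' deviations from their group means, from -0.0014 to 0.22, was not above 0.1 in every pair. Between the shRNA groups it was 0.14, 0.22 and 0.097, and there each library correlated best with its own number. For scr this held with both shRNA groups for replicate 1 (0.111 and 0.0396) and replicate 3 (0.0434 and 0.0381). It did not hold for scr replicate 2 (0.0008 and -0.0014). With the number as a replicate block, the members called higher and lower were 14 and 4 grouped, 33 and 15 with shMPZL3 #1, 14 and 7 with shMPZL3 #2, and 6 and 8 in #2 against #1. Under the block NEAT1 was called lower (edgeR adjusted p = 0.0312 grouped, 0.00143 with shMPZL3 #1 and 0.0053 with #2), as was XIST with #2 (0.0256), and MIR34AHG was called between the shRNAs (0.0127).

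The share of counts on the members was 0.300%, and 0.339% or 0.267% with the rule of 20 or 100 counts. Counting error weighs most on the members near 50 counts, and its part in the spread between libraries was not tested.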
